A study of Mus musculus with 6 samples.

Results

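Cytochrome P450 genes encode haem enzymes that insert 1 atom of oxygen into fatty acids, sterols, steroids, vitamins, drugs and plant compounds. The members described here are all genes outside family 1 whose symbol in the platform annotation starts with Cyp and a digit, without symbols carrying -ps. This gave 93 of the 19505 genes with a probe set (the set of probes read as 1 transcript), in 15 P450 families, and each had 1 probe set. They were measured on 6 single-colour arrays of total RNA labelled as colon crypt, the epithelial glands of the large bowel, from C57BL/6J mice. The 3 arrays titled PBS came from control mice, whose labels name no agent beyond that title. The 3 arrays titled MBELN came from mice gavaged daily for 7 days with 100 µl of MBELN, exosome-like nanoparticles from mulberry bark. Neither age nor sex is stated. The labels tie no array to a mouse of its own, so a p-value here speaks only of the spread among these 6 samples, which may be technical, and their small number limits precision.

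P450 families divide by task. Families 2 and 3 hold most of the enzymes that clear drugs and diet compounds, and family 4 oxidises the end carbon of fatty acids and leukotrienes. Other families make or break down bile acids, cholesterol, steroid hormones, retinoic acid and vitamin D. In the gut wall, the differentiated epithelium carries its own set of these enzymes, fed with electrons by a reductase of the endoplasmic reticulum and switched by nuclear receptors that sense bile acids, drugs and fats.

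The labelled tissue did not match the markers in most arrays. Of 10 gut epithelial genes, the median was 17.84 to 18.61 (log2) in the PBS arrays and 3.16 to 7.01 in the MBELN arrays. The median of 9 heart muscle genes was 18.82 in MBELN 1 and 19.03 in MBELN 3, and that of 8 neuronal genes was 14.95 in MBELN 2, against at most 4.14 for either list in the remaining arrays. Enterocyte genes of the small intestine had medians of 18.02 in PBS 1, 5.38 in PBS 2 and 17.6 in PBS 3, while colon epithelial genes had 8.07, 18.31 and 9.18. In MBELN 1, 2 and 3 the enterocyte medians were 9.98, 3.43 and 8.73, and the colon medians 3.88, 2.72 and 3.06. Enterocyte genes above the dim level numbered 7, 5 and 7 of 8 in the PBS arrays and 8, 2 and 8 in the MBELN arrays. Hepatocyte genes had a median of 10.24 in PBS 2, with Alb, the serum albumin gene, at 17.59, against medians of 3.64 to 6.17 elsewhere. Of 5 kidney tubule genes, 0 stood above the dim level in any array. The part that these differences in tissue markers play in the results below was not tested, and treatment and tissue markers cannot be told apart. In bulk RNA, fewer cells of a type and less RNA per cell cannot be told apart either.

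Fewer P450 genes gave a signal than genes in general. Each array's dim level was the value that 95% of 1412 probe sets for smell and pheromone receptors, genes silent in most tissues, did not exceed, and it lay between 3.99 and 4.44. In the PBS arrays 31, 35 and 32 of the 93 members stood above it, and in MBELN 1, 2 and 3 the numbers were 27, 23 and 25. As shares this was 24.7% to 37.6% of members, against 50.3% to 55.2% of all transcript probe sets. Above the level in at least 1 array were 52 members, and 41 were below it in all 6. A set of 9 members stood above it in all 6 arrays, namely Cyp20a1, Cyp27a1, Cyp2d13, Cyp2d22, Cyp2j6, Cyp39a1, Cyp4f14, Cyp4f16 and Cyp51. Each of these counts names a detection, not an amount, since values of different probe sets cannot be compared.

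**Figure D1:**
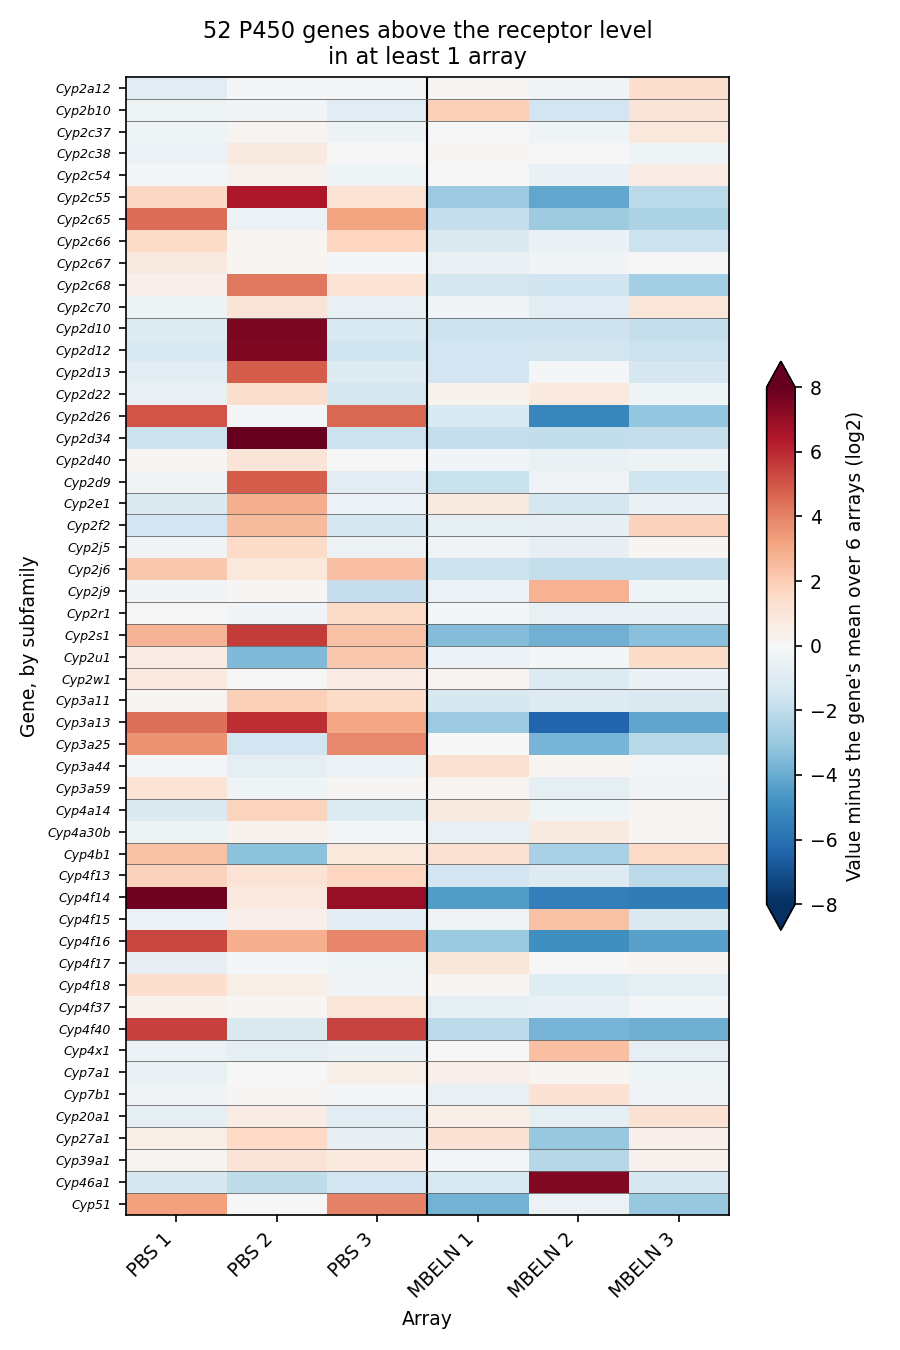
The 52 members above the dim level (receptor level in the title) in at least 1 array, by subfamily (rows), in each of the 6 arrays (columns). Colour gives the log2 value minus that gene's mean over the 6 arrays, with colours saturated beyond the ends of the scale. Cyp2d34 stands out in PBS 2, Cyp4f14 in PBS 1 and PBS 3, and Cyp46a1 in MBELN 2.

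The series compared MBELN with PBS arrays, and 6 P450 genes fell in MBELN while 0 rose. They were Cyp4f16, Cyp4f13 and Cyp4f14, which belong to the subfamily that oxidises leukotrienes and long-chain fatty acids, Cyp3a13, a drug- and steroid-oxidising enzyme of the mouse gut, Cyp2s1, an enzyme of epithelial surfaces, and Cyp2j6, of a subfamily that makes epoxides of arachidonic acid. With limma and Benjamini-Hochberg adjustment over 22206 probe sets, these 6 made up 6.45% of members, and 3.76% of all probe sets were called lower. The share called higher among all probe sets was 1.42%. At an unadjusted p under 0.05, 14 members were lower and 0 were higher, but the share of all probe sets at this cut was not counted. The 3 MBELN values lay below the 3 PBS values in 21 members and above them in 3, against 13.4% and 11.9% of all probe sets. The median difference of MBELN minus PBS was -0.05 over the 93 members and 0.09 over all probe sets (log2).

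Cyp4f16 read 15.02, 12.56 and 13.58 in PBS 1, 2 and 3, against 6.71, 4.73 and 5.30 in MBELN 1, 2 and 3. The groups stood far apart, and all 6 values were above the dim level. The gene fell by 8.14 ± 0.81 (log2, SE, n = 3), or 282-fold (limma, adjusted p = 0.00621). Cyp3a13 read 14.52, 16.04 and 13.23 in PBS against 7.19, 3.79 and 5.88 in MBELN. The highest value was in PBS 2 and the lowest, below the dim level, in MBELN 2. Cyp3a13 fell by 8.98 ± 1.10 (limma, adjusted p = 0.012).

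Cyp2s1 read 10.63, 13.54 and 10.29 in PBS against 4.43, 4.09 and 4.56 in MBELN, where the values lay at the dim level. It was highest in PBS 2, and it fell by 7.13 ± 0.91 with limma at an adjusted p of 0.0134. Cyp2j6 read 9.50, 8.17 and 9.75 in PBS against 5.68, 5.44 and 5.42 in MBELN. The MBELN values of Cyp2j6 were close together and all above the dim level, and the gene fell by 3.63 ± 0.48, or 12.36-fold (limma, adjusted p = 0.0149). Cyp4f13 read 8.08, 7.37 and 7.97 in PBS against 4.73, 5.24 and 4.14 in MBELN. This was the narrowest gap of the 6, with a fall of 3.10 ± 0.40 (adjusted p = 0.0138). Cyp4f14 read 18.76, 11.80 and 17.93 in PBS against 6.51, 5.55 and 5.39 in MBELN. PBS 2 lay far below the other PBS arrays, and the gene fell by 10.35 ± 1.88 (limma, adjusted p = 0.0403).

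**Figure D2:**
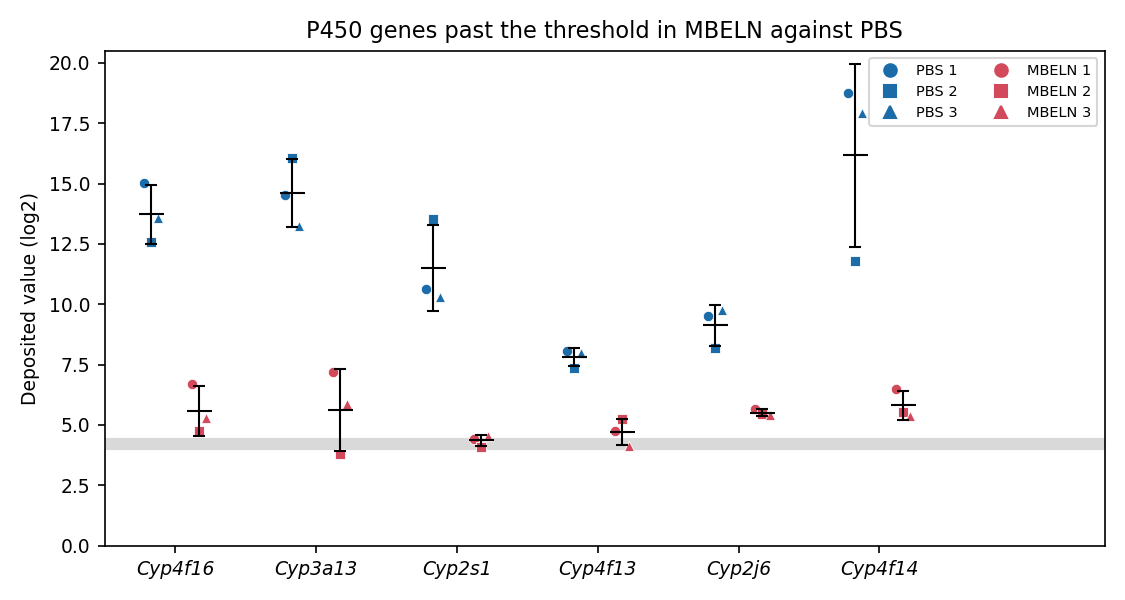
Deposited log2 values of the 6 P450 genes past the threshold, in order of p. Symbols are single arrays, bars are the mean and SD of 3 arrays, and the grey band spans the dim levels of the 6 arrays. For each gene all PBS points lie above all MBELN points, and for Cyp4f14 the PBS points spread from 11.80 to 18.76.

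Of these 6 calls, that of Cyp4f16 alone held when any 1 array was left out, with a highest adjusted p of 0.0443. Cyp3a13 lost its call when PBS 1 (limma, adjusted p = 0.0708) or MBELN 3 (0.0613) was left out. That of Cyp2s1 ended without PBS 1 (0.0558), MBELN 1 (0.0666) or MBELN 3 (0.0664). The calls of Cyp2j6, Cyp4f13 and Cyp4f14 ended without PBS 1 (0.0862, 0.0841 and 0.144), PBS 3 (0.070, 0.0818 and 0.166), MBELN 1 (0.0666, 0.067 and 0.13) or MBELN 3 (0.0776, 0.0553 and 0.15). The number of P450 genes called lower was 2 without PBS 1, 3 without PBS 3, 2 without MBELN 1 and 1 without MBELN 3. As shares this was 2.15%, 3.23%, 2.15% and 1.08% of members, against 1.46%, 1.48%, 1.85% and 1.64% of all probe sets in the same fits. The number was 12 without PBS 2 and 9 without MBELN 2, or 12.9% and 9.68% of members, against 5.86% and 7.32% of all probe sets. Without both of these arrays, 15 members (16.1%) were called lower and 3 (3.23%) higher, against 15.4% and 15.1% of all probe sets. The share of members called lower was thus near that of all probe sets there, and the share called higher was below it. All 6 falling genes were among those called in these last 3 settings.

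Hybridisation control probe sets split the arrays into a higher level (PBS 2, MBELN 1 and MBELN 3) and a lower one (PBS 1, PBS 3 and MBELN 2). With this level as a block, 9 members (9.68%) were called lower and 0 higher, against 4.48% and 1.72% of all probe sets. Within the higher level, with PBS 2 alone against MBELN 1 and MBELN 3, 16 were lower and 2 higher, and within the lower level, with MBELN 2 alone, 18 were lower and 6 higher. Of all probe sets, 9.21% were lower and 9.59% higher within the higher level, and 15.8% and 16.8% within the lower. These splits were chosen after seeing the data, and the lone array is only assumed to vary like the others, so they add no support to a call. All 6 falling genes were called lower with the block. Within the levels their values are given as a description. The difference of Cyp4f14 was -5.86 in the higher level and -12.80 in the lower one, and that of Cyp2s1 was -9.05 and -6.37.

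Family 4 had 19 measured members, of which 12 stood above the dim level in at least 1 array, 3 fell, 0 rose and 16 did not pass the test. The Cyp4f genes of chromosome 17 that passed the test all fell. Of the 9 measured Cyp4f genes, Cyp4f18 of another chromosome included, the MBELN values lay below all PBS values in 5 and above them in 1. The shares of all probe sets were 13.4% and 11.9%. The 1 with higher MBELN values was Cyp4f17, named here after its values were seen. It was above the dim level in MBELN 1 alone, at 4.52, and did not pass (limma, adjusted p = 0.383). Between Cyp4f16 and Cyp4f14 lies Cyp4f40, which read 12.34, 5.69 and 12.30 in PBS against 4.77, 3.14 and 2.96 in MBELN. Cyp4f40 was high in PBS 1 and PBS 3, the arrays with the highest medians of small intestinal markers. Its difference of -6.49 ± 1.93 (log2, SE, n = 3) did not pass (limma, adjusted p = 0.153). Without PBS 2 it was called (limma, adjusted p = 0.00502), but not with any other 1 array left out (0.126 to 0.428). Cyp4f15, the next gene along, named here after its values were seen, read 3.49, 4.38 and 3.14 in PBS against 3.73, 6.32 and 2.85 in MBELN, highest in MBELN 2. Cyp4b1, which activates plant and lung toxins, read 8.78, 3.17 and 7.29 in PBS against 7.68, 3.85 and 7.99 in MBELN. It was below the dim level in PBS 2 and MBELN 2 and well above it in the other 4 arrays, so the groups overlapped (difference 0.09 ± 1.82). Cyp4a14, a fatty acid hydroxylase, read 6.33 in PBS 2 and at most 5.24 elsewhere, and Cyp4x1, known from brain, read 5.93 in MBELN 2 and at most 3.54 elsewhere. Cyp4a30b crossed the dim level in MBELN 2 alone, at 4.29. Cyp4f18, the one Cyp4f gene on another chromosome, named after its values were seen, read 6.36, 5.47 and 4.71 in the PBS arrays against 5.20, 4.08 and 4.30 with MBELN.

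The window upstream of Cyp4f40 is shown because 3 kinds of searched motif occur in it. It is chr17:32658636-32658885 on the plus strand of GRCm38.p6, from RefSeq. Capitals mark an HNF1 half-site (GTTAAT), a CDX element (TTTATNG, read here on the opposite strand) and a GATA element (AGATAA, also on the opposite strand).
Cyp4f40: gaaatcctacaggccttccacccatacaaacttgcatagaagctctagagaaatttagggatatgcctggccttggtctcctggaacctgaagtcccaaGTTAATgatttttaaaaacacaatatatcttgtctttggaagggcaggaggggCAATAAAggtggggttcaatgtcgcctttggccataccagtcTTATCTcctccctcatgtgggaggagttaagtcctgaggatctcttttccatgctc
These motifs were searched on both strands in the 250 bases before the first listed start of each gene. Over 27025 such windows of all genes, 6.52% held the HNF1 half-site, 10.2% the CDX element and 10.3% the GATA element. A window was found for 70 of the 93 members, in which these motifs occurred 9, 8 and 11 times, counted as windows with a match. A match is a run of letters and not a shown binding site.

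Family 2 was the largest, with 47 members in 14 subfamilies. Of these, 28 stood above the dim level in at least 1 array, 2 fell (Cyp2s1 and Cyp2j6), 0 rose and 45 did not pass the test. Its Cyp2c and Cyp2d gene clusters separated PBS 2 from the other PBS arrays. Over all 93 members, PBS 2 stood more than 3 log2 units above both other PBS arrays in 9 and below both in 8, against 1.94% and 2.08% of all probe sets. These counts compare single arrays and carry no test. PBS 1 and PBS 3 lay within 1 log2 unit of each other in 82 of the 93. Pearson's r across members, which are not independent replicates, was 0.982 between PBS 1 and PBS 3, and 0.655 and 0.636 between PBS 2 and these arrays. Over all 22206 probe sets r was 0.983, 0.891 and 0.886.

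All 8 measured Cyp2d genes, a drug-metabolising subfamily clustered on chromosome 15, stood above the dim level in PBS 2, and 5 did so in PBS 1 and in PBS 3. Cyp2d34 read 14.47 in PBS 2, 3.58 in PBS 1, 3.53 in PBS 3 and 3.33 to 3.38 in the MBELN arrays. Thus 1 array of 6 gave a signal. Cyp2d10 read 12.94 in PBS 2, 4.35 and 4.19 in PBS 1 and PBS 3, and 3.48 to 3.73 in MBELN. Cyp2d12 read 12.06 in PBS 2 and 2.90 to 3.41 in the other 5 arrays. All MBELN values of the 3 genes were below the dim level. For Cyp2d34 and Cyp2d12 the PBS 1 and PBS 3 values were below it too, so no bound on their fold is given. Cyp2d10 was above it in all PBS arrays, and its group mean was at least 7.222-fold lower in MBELN. PBS 2 was the 1 array far above the rest, and none of the 3 genes passed (limma, adjusted p = 0.581, 0.528 and 0.579). Cyp2d9 and Cyp2d13, named after their values were seen, read 10.33 and 11.43 in PBS 2 and at most 5.18 and 6.53 elsewhere. RefSeq lists Cyp2d13 as a transcribed pseudogene. The array's probes may not tell these similar genes apart, so signal from 1 member can raise another.

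Cyp2d26, the last gene of the cluster, ran the other way among the PBS arrays. Its PBS values were 13.05, 7.84 and 12.60 in arrays 1, 2 and 3, and its MBELN values were 6.78, 2.81 and 4.92. All PBS values lay above all MBELN values, and the difference of -6.33 ± 1.72 (SE, n = 3) did not pass (limma, adjusted p = 0.123). Without PBS 2 it was called (limma, adjusted p = 0.0321), but not with any other 1 array left out (0.1 to 0.37). At the other end of the cluster, Cyp2d22, also named after its values were seen, stood above the dim level in all 6 arrays, between 6.96 and 9.68. Beside the Cyp2d values of PBS 2, Alb read 17.59 in that array and at most 7.37 in the others, and Aqp8, a water channel of the colon surface, read 16.13 against at most 3.13. Not every marker of the 2 lists was highest in PBS 2. Apoc3, of the hepatocyte list, read 7.98 there against 10.44 and 10.76 in PBS 1 and PBS 3. Mettl7b, of the colon list, read 6.20 against 7.86 and 8.96. Hepatocyte markers above the dim level numbered 7 of 8 in PBS 2 and 3 to 6 of 8 in the other arrays, and colon epithelial markers 6 of 6 in PBS 2 and 1 to 5 of 6 in the others. The part of either in the Cyp2d values was not tested.

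The windows before the starts of Cyp2d10 and Cyp2d26 are shown because these genes of 1 cluster were high in different PBS arrays. They lie at chr15:82407195-82407444 on the minus strand and chr15:82794246-82794495 on the minus strand (GRCm38.p6, RefSeq). Capitals mark the TATA box letters (TATAAA, found here on the opposite strand, as TTTATA) in both and an HNF1 half-site, read on the opposite strand, in Cyp2d26.
Cyp2d10: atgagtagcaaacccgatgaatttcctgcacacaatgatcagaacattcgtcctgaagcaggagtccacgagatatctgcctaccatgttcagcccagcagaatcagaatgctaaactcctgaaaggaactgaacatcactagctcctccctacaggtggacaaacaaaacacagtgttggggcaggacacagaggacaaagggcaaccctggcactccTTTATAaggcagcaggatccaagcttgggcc
Cyp2d26: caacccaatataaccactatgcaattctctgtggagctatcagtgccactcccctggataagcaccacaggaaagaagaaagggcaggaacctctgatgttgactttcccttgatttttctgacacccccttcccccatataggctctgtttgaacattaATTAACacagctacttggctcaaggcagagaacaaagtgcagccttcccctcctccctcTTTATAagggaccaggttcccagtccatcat
The windows were identical at 50.2% of aligned columns. Between Cyp2d10 and Cyp2d9, both high in PBS 2, 82.3% of columns were identical. Between Cyp2d10 and Cyp2d40, which stood above the dim level in PBS 2 alone, at 4.65, the share was 49.4%. Whether likeness of windows has a part in the values was not tested. Counted from the start, the TATA box letters lie at -31 to -26 in both, and they occurred in 24 of the 70 member windows and in 13.0% of all windows.

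**Figure D3:**
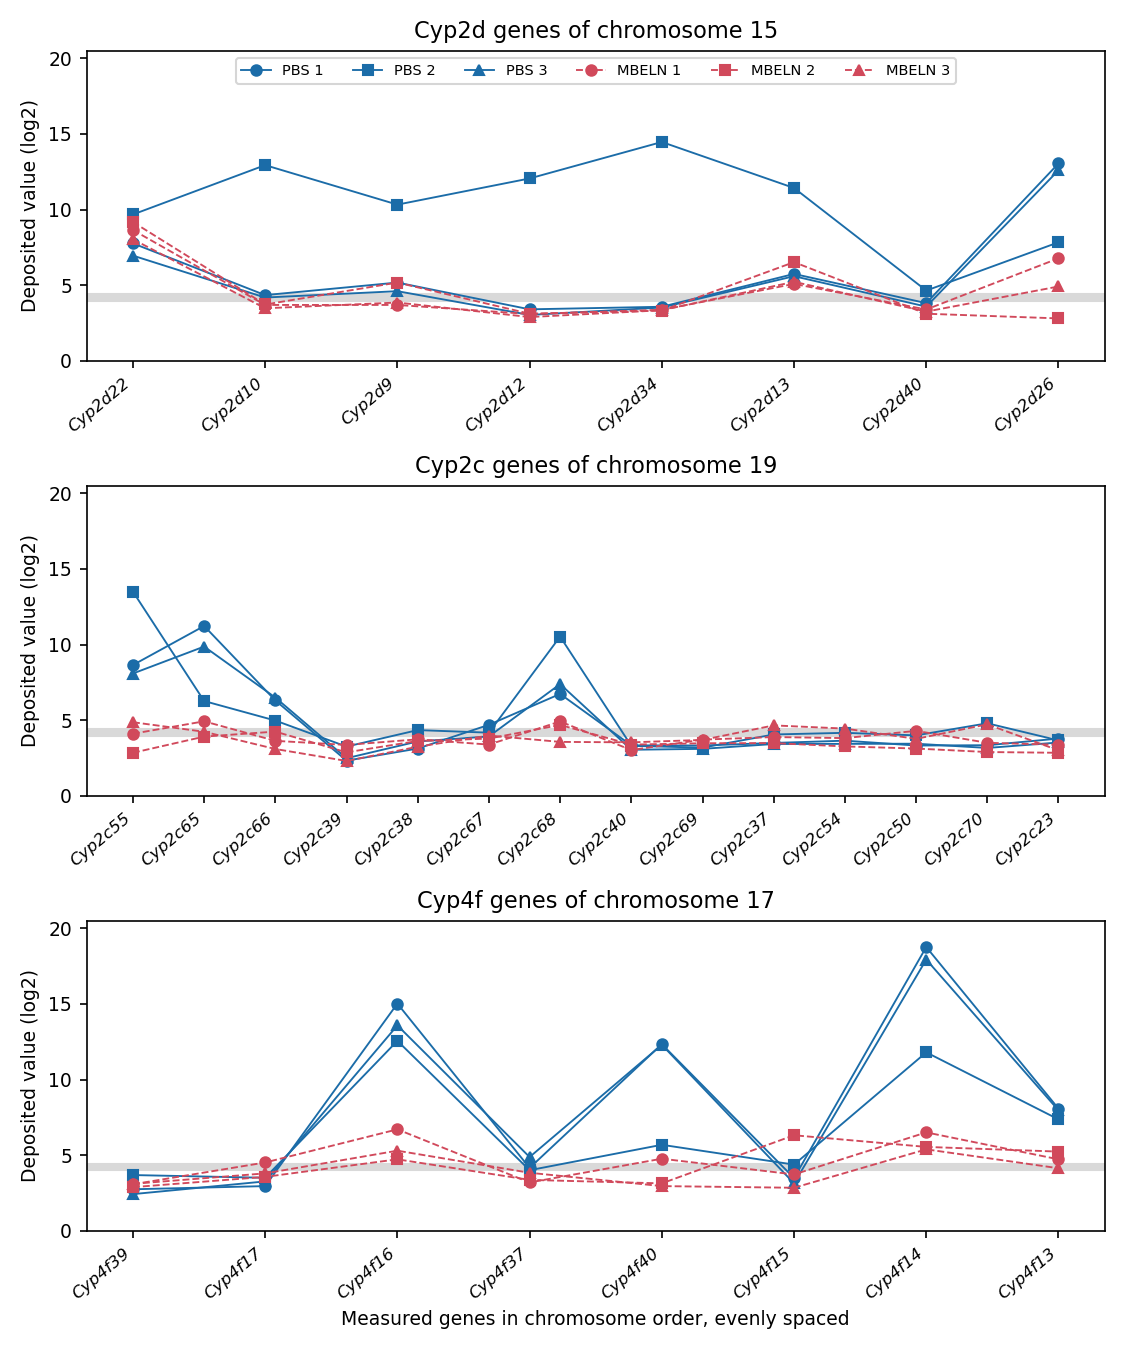
Deposited log2 values of the measured Cyp2d, Cyp2c and Cyp4f genes in their order along chromosomes 15, 19 and 17, with genes evenly spaced and 1 line per array. The grey band spans the dim levels. The PBS 2 line leaves all others from Cyp2d10 to Cyp2d13, and the PBS 1 and PBS 3 lines cross it at Cyp2d26 and between Cyp2c55 and Cyp2c65.

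In the Cyp2c cluster of chromosome 19, whose enzymes oxidise arachidonic acid and drugs, 9 of 14 members stood above the dim level in at least 1 array and 0 passed the test with limma over all 6 arrays. Cyp2c55 and Cyp2c65 are neighbours, and among the PBS arrays PBS 2 was highest for the first and lowest for the second. Cyp2c55 read 8.65, 13.50 and 8.09 in PBS 1, 2 and 3, against 4.11, 2.85 and 4.87 in MBELN 1, 2 and 3. Cyp2c65 read 11.23, 6.27 and 9.87, and 4.93, 3.92 and 4.24. For both genes every PBS value was above every MBELN value. The differences were -6.14 ± 1.55 and -4.76 ± 1.29 (log2, SE, n = 3), and neither passed (limma, adjusted p = 0.103 and 0.123). Cyp2c68, like Cyp2c55, was highest in PBS 2, with 6.74, 10.53 and 7.39 in PBS against 4.92, 4.69 and 3.57 in MBELN. Cyp2c66, like Cyp2c65, was lowest in PBS 2 among the PBS arrays, with 6.31, 4.98 and 6.50 in PBS against 3.64, 4.25 and 3.10 in MBELN. Neither Cyp2c68 nor Cyp2c66 passed (limma, adjusted p = 0.132 and 0.0892). With the hybridisation level blocked, Cyp2c55 and Cyp2c66 were called lower (limma, adjusted p = 0.0168 and 0.0436). Without PBS 2, Cyp2c55, Cyp2c65 and Cyp2c66 were called lower (0.0331, 0.00858 and 0.0362), and without MBELN 2, Cyp2c66 was (0.0315). These genes were not called with any other 1 array left out. Cyp2c37, Cyp2c38 and Cyp2c54, named after their values were seen, each crossed the dim level in 1 array, with top values of 4.66, 4.35 and 4.45.

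The windows before 3 members named here hold the letters CAAAGTCCA, a sequence bound by the hepatocyte nuclear factor HNF4. They are shown with that of Cyp2c55, which lacks it. The positions in GRCm38.p6 are chr19:39060756-39061005 on the plus strand, chr19:39741102-39741351 on the minus strand, chr5:145879855-145880104 on the minus strand and chr19:39006769-39007018 on the plus strand. Capitals mark CAAAGTCCA, and also TATAAA in Cyp2c65, Cyp3a11 and Cyp2c55, an HNF1 half-site on the opposite strand in Cyp2c68, a nuclear receptor half-site (AGTTCA, on the opposite strand) in Cyp3a11, and a CDX element (opposite strand) and a GATA element in Cyp2c55.
Cyp2c65: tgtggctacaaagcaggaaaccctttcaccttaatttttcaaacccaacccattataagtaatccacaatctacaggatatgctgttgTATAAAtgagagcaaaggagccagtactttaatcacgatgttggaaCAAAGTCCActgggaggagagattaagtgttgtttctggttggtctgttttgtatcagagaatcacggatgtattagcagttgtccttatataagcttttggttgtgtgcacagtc
Cyp2c68: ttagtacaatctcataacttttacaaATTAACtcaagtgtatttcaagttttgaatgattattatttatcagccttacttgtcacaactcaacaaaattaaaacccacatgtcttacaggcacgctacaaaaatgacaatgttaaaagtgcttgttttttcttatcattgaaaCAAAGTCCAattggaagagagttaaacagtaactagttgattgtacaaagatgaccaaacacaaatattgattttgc
Cyp3a11: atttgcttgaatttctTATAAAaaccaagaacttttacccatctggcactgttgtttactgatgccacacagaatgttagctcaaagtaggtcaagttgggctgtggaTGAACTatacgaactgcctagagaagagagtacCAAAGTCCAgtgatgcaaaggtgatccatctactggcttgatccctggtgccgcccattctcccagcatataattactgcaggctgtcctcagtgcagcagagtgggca
Cyp2c55: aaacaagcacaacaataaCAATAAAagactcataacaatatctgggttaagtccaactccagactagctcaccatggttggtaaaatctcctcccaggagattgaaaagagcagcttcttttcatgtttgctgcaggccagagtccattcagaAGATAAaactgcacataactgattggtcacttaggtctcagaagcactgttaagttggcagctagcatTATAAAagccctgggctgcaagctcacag
Counted from the start, with the base before it as -1, the element lies at -116 to -108 in Cyp2c65, -77 to -69 in Cyp2c68 and -109 to -101 in Cyp3a11. It occurred in 11 of 70 member windows and in 0.381% of all 27025. The 11 were Cyp2c40, Cyp2c65, Cyp2c67, Cyp2c68, Cyp2c69, Cyp2c70, Cyp3a11, Cyp3a16, Cyp3a41a, Cyp3a41b and Cyp8b1. These are mostly cluster copies, as the windows of Cyp3a41a and Cyp3a41b, identical at 99.6% of columns, show, so they are not independent cases. Of the 11, 5 belonged to members above the dim level in at least 1 array. The windows of all 6 falling genes were searched, and 0 of them held it. The nuclear receptor half-site occurred in 11 of 70 member windows and in 11.9% of all windows.

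Other family 2 members also singled out arrays. Cyp2e1, which oxidises ethanol, read 3.90, 7.98 and 4.59 in PBS against 5.77, 3.64 and 4.57 in MBELN, highest in PBS 2. Cyp2f2, an enzyme of lung club cells, read 6.71 in PBS 2, 5.98 in MBELN 3 and 2.61 to 3.50 in the other arrays, below the dim level. In the same arrays Scgb1a1, the main secretory protein gene of club cells, read 9.03 in PBS 2, 10.91 in MBELN 3 and 2.73 to 4.75 elsewhere. Of the 3 lung markers listed (Scgb1a1, Scgb3a2 and Sftpc), 3 were above the dim level in PBS 2 and MBELN 3 against 0 or 1 elsewhere. Scgb3a2 was barely above it in PBS 2, at 4.33. The part of these markers in the Cyp2f2 values was not tested. Cyp2u1, a fatty acid hydroxylase, read 8.19, 4.05 and 9.74 in PBS against 7.09, 7.42 and 9.05 in MBELN, so PBS 2 alone was below the dim level. Cyp2b10, a drug-induced liver enzyme, read 4.33, 4.47 and 3.79 in PBS against 6.58, 3.17 and 5.69 in MBELN. It was highest in the arrays with heart markers and did not pass with all arrays (limma, adjusted p = 0.638), but was called higher without MBELN 2. No other fit with 1 array left out called it. Cyp2j9, known from brain, read 8.01 in MBELN 2 and 3.41 to 5.35 elsewhere.

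Weak signals made up the rest of family 2. Cyp2a12 read 5.06 in MBELN 3 and at most 3.81 elsewhere, and Cyp2j5 read 4.71 in PBS 2 and at most 3.34 elsewhere. Cyp2r1, which activates vitamin D, read 4.91 in PBS 3 and at most 3.32 in the other arrays. Cyp2w1 stood just above the dim level in PBS 1, at 4.40, and in PBS 3, at 4.28. Each of these genes crossed the dim level in at most 2 arrays.

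Family 3, the main drug-clearing family, had 9 members, all Cyp3a, of which 5 stood above the dim level in at least 1 array, 1 fell (Cyp3a13) and 8 did not pass. Cyp3a25 read 9.95, 4.84 and 10.21 in PBS against 6.42, 2.64 and 4.13 in MBELN, high in PBS 1 and PBS 3. Its groups overlapped, at a difference of -3.94 ± 1.75 (log2, SE, n = 3; limma, adjusted p = 0.322). Cyp3a11, the classic target of the pregnane X receptor in mouse liver, read 5.21, 6.93 and 6.48 in PBS against 3.75, 3.99 and 3.89 in MBELN, below the dim level. The MBELN level was at least 3.721-fold lower and did not pass (limma, adjusted p = 0.0631), but was called without PBS 1 (0.0434) or MBELN 2 (0.0412). Leaving out any other 1 array gave no call. Cyp3a44 stayed between 3.91 and 5.83 in all arrays.

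Of the enzymes of cholesterol and bile acids, 0 passed with limma over all 6 arrays. Cyp51, which removes a methyl group from lanosterol in cholesterol synthesis, read 13.19, 9.94 and 13.86 in PBS against 6.11, 9.41 and 6.88 in MBELN. Its lowest PBS value, in PBS 2, was close to its highest MBELN value, in MBELN 2, and the difference of -4.86 ± 1.34 (log2, SE, n = 3) did not pass (limma, adjusted p = 0.128). Cyp51 was called lower with the hybridisation level blocked (limma, adjusted p = 0.013), without PBS 2 (0.0485) and without MBELN 2 (0.0283). It was not called with any other 1 array left out. Cyp46a1, the enzyme by which neurons clear cholesterol, read 11.61 in MBELN 2 and 2.16 to 2.95 in the other 5 arrays. It was therefore detected in 1 array, the one in which 8 of 8 neuronal markers stood above the dim level. MBELN 1 and MBELN 3 were below that level, as were all PBS arrays, and the difference did not pass (limma, adjusted p = 0.564). In all, MBELN 2 stood more than 1.5 log2 units above every other array in 4 members (Cyp46a1, Cyp2j9, Cyp4f15 and Cyp4x1), against 10.8% of all probe sets.

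The window before Cyp46a1 is shown as that of a member detected in MBELN 2 alone, and it held 0 of the 7 motifs searched. It lies at chr12:108334066-108334315 on the plus strand of GRCm38.p6 (RefSeq) and is written without capitals.
Cyp46a1: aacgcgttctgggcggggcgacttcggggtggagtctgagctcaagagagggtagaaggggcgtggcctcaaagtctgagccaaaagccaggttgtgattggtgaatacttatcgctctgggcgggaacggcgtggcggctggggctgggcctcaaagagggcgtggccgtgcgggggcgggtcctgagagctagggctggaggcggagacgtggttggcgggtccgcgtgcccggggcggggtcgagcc
No match says only that these letters are not in this window.

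Cyp27a1, a mitochondrial sterol hydroxylase of bile acid synthesis, read 7.64, 8.78 and 6.51 in PBS against 8.35, 4.13 and 7.60 in MBELN. Cyp39a1, which acts on oxysterols, read 7.38, 8.21 and 7.95 in PBS against 7.09, 4.91 and 7.52 in MBELN. Both were lowest in MBELN 2 and stayed above 6 in the other 5 arrays. Cyp7a1, the rate-limiting enzyme of bile acid synthesis in liver, stayed between 3.46 and 4.51, near the dim level, and Cyp7b1 crossed it in MBELN 2 alone, at 4.66. Cyp8b1, the liver enzyme that sets the type of bile acid made, was below the dim level in all 6 arrays. Cyp20a1, whose role is not settled, stood above the dim level in all 6, between 6.16 and 8.25.

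The P450 genes of steroid hormones, retinoic acid and active vitamin D gave no detectable signal. Cyp11a1, Cyp11b1, Cyp11b2, Cyp17a1 and Cyp21a1, which turn cholesterol into steroid hormones, were below the dim level in all 6 arrays. So were Cyp26a1, Cyp26b1 and Cyp26c1, which break down retinoic acid, and Cyp27b1 and Cyp24a1, which activate and inactivate vitamin D. A value below this level does not show that the transcript is absent. Of 5 markers of steroid-making cells, at most 2 stood above the dim level in any array.

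Proteins that work with P450 enzymes were given by a list of 48 genes, of which 41 had a probe set. Of these, 6 fell, 1 rose and 34 did not pass the test, against 3.76% and 1.42% of all probe sets called lower and higher. The list was chosen with earlier results of these data known, so these counts are no test of it. The median difference was -0.07 (log2). All 7 calls were among the 23 nuclear receptors and transcription factors. Hnf4a, a factor of liver and gut epithelium, read 14.82, 13.59 and 14.58 in PBS against 2.95, 3.29 and 2.90 in MBELN, below the dim level. With limma, the MBELN level was at least 1039-fold lower at an adjusted p of 0.000542. Nr1h4, the bile acid receptor FXR, read 12.10, 10.61 and 12.05 in PBS against 3.43, 3.17 and 3.44 in MBELN, at least 155.1-fold lower (limma, adjusted p = 0.00143).

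Nr1i2, the pregnane X receptor that senses drugs, read 9.59, 9.94 and 9.79 in PBS against 4.60, 3.72 and 3.33 in MBELN, above the dim level in MBELN 1 alone. It fell by 5.89 ± 0.40 (SE, n = 3; limma, adjusted p = 0.00215). Nr1i3, the related receptor CAR, read 3.01, 4.63 and 4.17 in PBS against 3.26, 2.74 and 3.91 in MBELN and did not pass (limma, adjusted p = 0.605). The other genes called were Vdr, the vitamin D receptor, Nr5a2 and Cebpa, all lower, and Rarb, a retinoic acid receptor, higher. The differences of Vdr, Cebpa and Rarb were -5.93, -3.45 and 4.02 (limma, adjusted p = 0.00305, 0.0276 and 0.0175). Nr5a2 was below the dim level in all MBELN arrays and at least 33.19-fold lower there (limma, adjusted p = 0.0163). Vdr stayed above the dim level in the MBELN arrays, between 6.20 and 7.35, and Rarb was above it in PBS 3 alone among the PBS arrays. The calls of Nr5a2 and Cebpa ended without PBS 1 (limma, adjusted p = 0.0846 and 0.132), PBS 3 (0.0785 and 0.0679), MBELN 1 (0.0666 and 0.0527) or MBELN 3 (0.0819 and 0.103), and that of Rarb without PBS 1 (0.0973), MBELN 1 (0.0821) or MBELN 3 (0.053). Without MBELN 2, 8 genes of the list (19.5%) were called lower and 10 (24.4%) higher, against 7.32% and 9.51% of all probe sets. Without PBS 2 the counts were 9 and 1 (22.0% and 2.44%, against 5.86% and 1.35%). Without both arrays they were 13 and 14 (31.7% and 34.1%, against 15.4% and 15.1%). Gut epithelial markers above the dim level numbered 9 or 10 of 10 in PBS and 7, 1 and 9 of 10 in MBELN 1, 2 and 3, and their part in these differences was not tested.

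**Figure D4:**
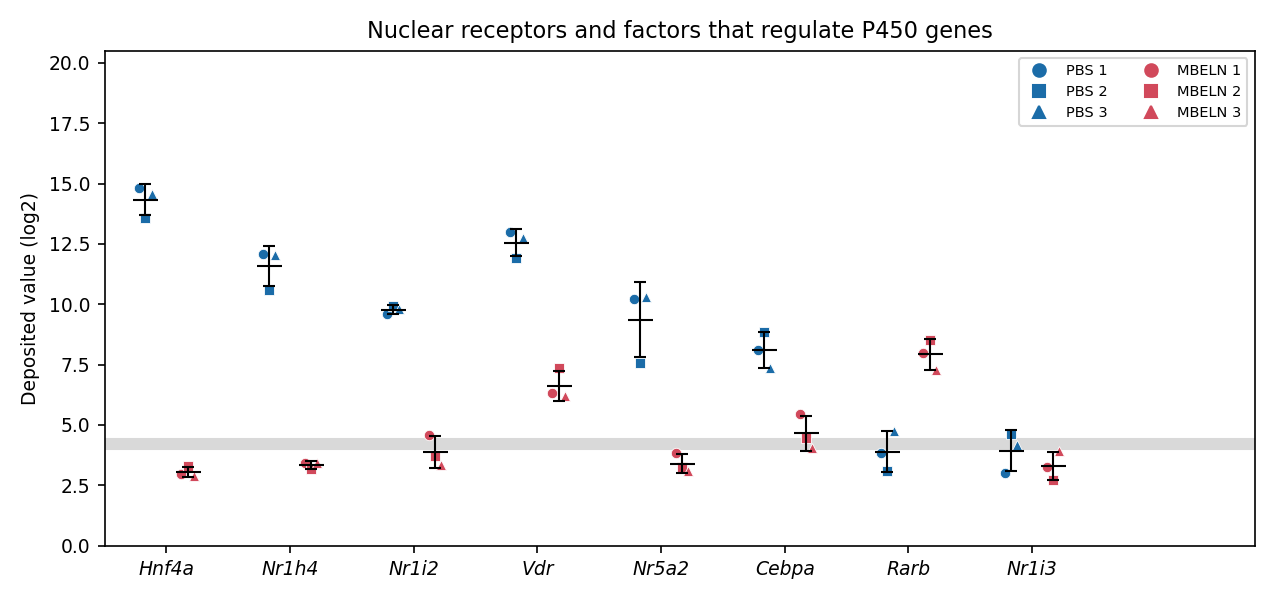
Deposited log2 values of the 7 nuclear receptors and factors past the threshold, and of Nr1i3, which did not pass. Symbols are single arrays, bars are the mean and SD of 3 arrays, and the grey band spans the dim levels. PBS points lie above MBELN points for the 6 genes that fell, and below them for Rarb.

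None of the 7 measured electron donors and partners passed, nor any of the 11 haem genes (limma, 0 calls in each, with 1 and 3 genes at an unadjusted p under 0.05). Here too the share of all probe sets at the unadjusted cut was not counted, so these counts show nothing particular to the listed genes. Cyb5b, an outer mitochondrial cytochrome b5, read 14.04, 10.27 and 14.58 in PBS against 8.65, 10.92 and 9.25 in MBELN (limma, adjusted p = 0.263). Cyb5r1, a reductase, read 3.77 to 4.45 in PBS and 4.31 to 6.46 in MBELN, and Pgrmc1, a haem protein that binds P450 enzymes, read 10.26 to 13.54 in PBS and 8.90 to 12.54 in MBELN. Fdx1, the electron donor of mitochondrial P450 enzymes, read 7.75, 8.59 and 8.10 in PBS against 10.23, 5.54 and 10.55 in MBELN, with MBELN 2 low. Of the haem genes, Hmox2, which breaks haem down, read 10.26 to 10.87 in PBS and 11.81 to 12.62 in MBELN, without overlap (limma, adjusted p = 0.0863). Cpox, of haem synthesis, read 6.55 to 7.25 and 7.67 to 8.49 (0.173), and Fech, which inserts the iron, read 8.14 to 8.73 in PBS against 11.41, 8.68 and 11.91 in MBELN (0.26).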

How the data were processed

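Values were the authors' deposited series table, 1 log2 value per probe set and array. The log2 scale is inferred, since no value was below 0 and the largest was 19.93. Per the submitters' processing notes the software was Transcriptome Analysis Console 4.0. How probes were summarized, corrected and normalized, and on which genome build, is not given in the sources used here. Beside an Affymetrix cRNA protocol the labels also name an Ion AmpliSeq assay, which was not resolved here. Of 28846 probe sets, 6640 controls were left out. Of the remaining 22206, 19572 had 1 gene symbol, 0 several and 2634 none. The 93 member symbols matched a RefSeq table of GRCm38.p6 unchanged.

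Groups came from the titles. MBELN minus PBS was fitted with lmFit and eBayes (limma 3.58.1, R 4.3.3) on all 22206 probe sets, two-sided, without covariates, with Benjamini-Hochberg adjustment at 0.05. Positive differences are higher in MBELN. Where every array of 1 group lay below its dim level and every array of the other above, a bound on the fold is given. It is at least the brighter mean over the mean of the levels of the dim group. The fit was tested on simulated data.

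Members, lists, motifs and marker genes were chosen with earlier results of these data known. Named are all members past the threshold and, in each family (subfamily in families 2, 3 and 4), up to 4 with the widest range over arrays among members above the dim level in at least 1 array. Of the partner list, named are Por, Fdx1, Nr1i2, Nr1i3, Hnf4a and up to 3 genes per group with the smallest p. Por was not analysed here. Alternatives were quantile normalization, median centring, a dim filter, a trended robust variance, blocks, arrays left out, the choice of probe set and a 99th percentile dim level. Fits within each hybridisation control level were added after seeing the data.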

Additional observations from a re-analysis of the deposited data

How the results depend on the processing

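With quantile normalization, centring on medians, dim probe sets left out or a trended robust variance, the same 6 P450 genes were called lower and 0 higher (limma). Counts over all probe sets were 835 lower and 315 higher, and stayed within 1.5 times of these except 193 higher with the trended robust variance. That setting gave 672 lower, and the dim filter, which tests fewer probe sets, gave 964 and 374. It moved the share called lower to 19.4% of members tested and 7.98% of all tested. No member had more than 1 probe set, so the choice of probe set changed nothing. Deviations of same-numbered arrays from their group means gave r = -0.0315, -0.0718 and -0.0557. Since array 2 lay far from the others in each group, these values cannot show whether same-numbered arrays share a batch or a pairing. With the replicate number as a block, 393 probe sets were lower and 63 higher, 2 members were lower (Cyp2d26 and Cyp4f16), and 4 genes of the partner list were lower and 0 higher.

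With 1 array left out, all probe sets called lower ranged from 325 to 1626 and higher from 51 to 2112, members lower from 1 to 12 and higher from 0 to 1, and partner genes lower from 4 to 9 and higher from 0 to 10. Without PBS 2 and MBELN 2, 3415 probe sets were lower and 3354 higher, with 15 and 3 members and 13 and 14 partner genes. Both within-level fits were chosen after seeing the data. Within the higher hybridisation control level these were 2045 and 2129 probe sets, 16 and 2 members, and 8 and 9 partner genes. Within the lower level they were 3503 and 3731, 18 and 6, and 16 and 3. With a 99th percentile dim level, 17, 14 and 14 members stood above it in MBELN 1, 2 and 3.

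Signs of some uncalled differences turned (log2, MBELN minus PBS). Without PBS 2 and MBELN 2 they were 0.90 for Cyp27a1, 0.92 for Cyp2e1, 0.29 for Cyp2j5, -0.90 for Cyp2u1, -0.016 for Cyp4a30b, -0.20 for Cyp4b1 and -0.24 for Cyp7b1. With the hybridisation block they were -0.60 for Cyp2f2 and -0.33 for Cyp4a14. Within the higher level they were -2.01 for Cyp2f2, -0.50 for Cyp2j9, 0.43 for Cyp3a25, -1.40 for Cyp4a14, -0.54 for Cyp4a30b and -0.54 for Cyp7b1, and within the lower one -0.89 for Cyp2b10, -1.55 for Cyp2u1 and -4.19 for Cyp4b1, the single turned value past the threshold. With 1 array left out in turn, they ranged from -1.78 to 0.33 for Cyp27a1, -1.63 to 0.41 for Cyp2e1, -0.57 to 1.62 for Cyp2f2, -0.87 to 0.087 for Cyp2j5, -1.11 to 1.73 for Cyp2u1, -0.22 to 1.25 for Cyp4a14, -0.19 to 0.47 for Cyp4a30b, -1.53 to 1.42 for Cyp4b1, -0.14 to 0.39 for Cyp7a1 and -0.34 to 0.52 for Cyp7b1. The cause was not tested. Signal at or below the dim level limits what can be said of the 41 members that never rose above it.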
